A study of Mus musculus with 14 samples.

Results

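The genes described here are 4 transcriptional targets of the co-activator YAP (Ankrd1, Ccn1, Ccn2 and Amotl2) and 4 genes that mark fetal-like or regenerating gut epithelium (Clu, Ly6a, Anxa1 and Anxa3). They were taken as a list, which was chosen with earlier results of these data known. With 1 probe set for each gene whose only symbol it carried, 7 of the 8 could be measured among 19938 genes in all. Ly6a had no such probe set in the annotation used and is not analysed here. RNA came from C57BL/6 mice and was read on an Affymetrix gene array, with 14 arrays in 7 groups of 2. The values are log2 signals, so that a difference of 1 is a 2-fold difference in signal.

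Organoids were differentiated gallbladder organoids, undifferentiated gallbladder organoids, liver organoids or small intestine organoids, and whole gallbladder, liver or small intestine made up the other 3 groups. As the labels describe it, organoids were grown in Matrigel in one expansion medium that held B27, N2, N-acetylcysteine, nicotinamide, EGF, FGF10 and HGF at 50 ng/ml each, and conditioned media with R-spondin 1 and noggin. The differentiated gallbladder organoids were gallbladder organoids kept for 2 weeks without R-spondin 1, noggin and nicotinamide. The labels give no age or sex of the mice and do not say whether the arrays of a group came from separate animals or cultures, so p-values measure only the spread between these arrays, which may be technical.

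YAP and its paralogue TAZ (Wwtr1) are co-activators held in the cytoplasm by the Hippo kinases. When the kinases are inactive they enter the nucleus, bind the TEAD factors and turn on genes such as Ankrd1, Ccn1 and Ccn2. In the gut, YAP activity accompanies regeneration after injury, when part of the epithelium takes on fetal-like expression with Clu, Ly6a and annexins. In the liver and biliary tree, YAP is known for its activity in duct cells and for its low activity in hepatocytes.

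Array medians ran from 7.12 to 7.44, and the brightest signal of an array lay between 14.55 and 14.78. The spread between the arrays of a group was smaller in organoids (pooled SD 0.0952 to 0.136) than in liver tissue (0.289), small intestine tissue (0.368) and gallbladder tissue (0.404). Markers of the epithelium averaged 12.65 to 13.15 in the organoid groups and 12.30, 9.16 and 12.54 in gallbladder, liver and small intestine tissue. The hepatocyte markers (Alb, Ttr and others) averaged 7.11 in liver organoids, against 14.17 in liver tissue, while the gallbladder and bile duct markers (Sox9, Sox17 and others) averaged 10.82 in liver organoids and 7.80 in liver tissue. Gallbladder tissue held high hepatocyte markers too, at 13.02 and 13.99 on its arrays. The pancreatic acinar markers averaged 12.90 on the array of small intestine tissue replicate 2, against 6.90 on replicate 1, so results that use small intestine tissue are given with and without replicate 2 where a call depended on it.

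All 7 measured members were higher in gallbladder organoids than in small intestine organoids, and all 7 were higher in liver organoids than in small intestine organoids (limma with Benjamini-Hochberg adjustment over all genes, called at an adjusted p below 0.05). Of all genes, 20.2% were called higher and 15.4% lower in the comparison of gallbladder with small intestine organoids, and 14.2% and 12.2% in that of liver with small intestine organoids. The median difference of the members was 3.68 for gallbladder and 3.75 for liver organoids, against 0.11 and 0.05 over all genes. Both comparisons share the small intestine organoid arrays. For gallbladder organoids, 6 of the 7 differences lay above the 99th percentile of all genes, and that of Amotl2 lay at the percentile 95.8. Because the members were chosen with earlier results of these data known, these counts and percentiles describe the list and do not test it.

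**Figure D1:**
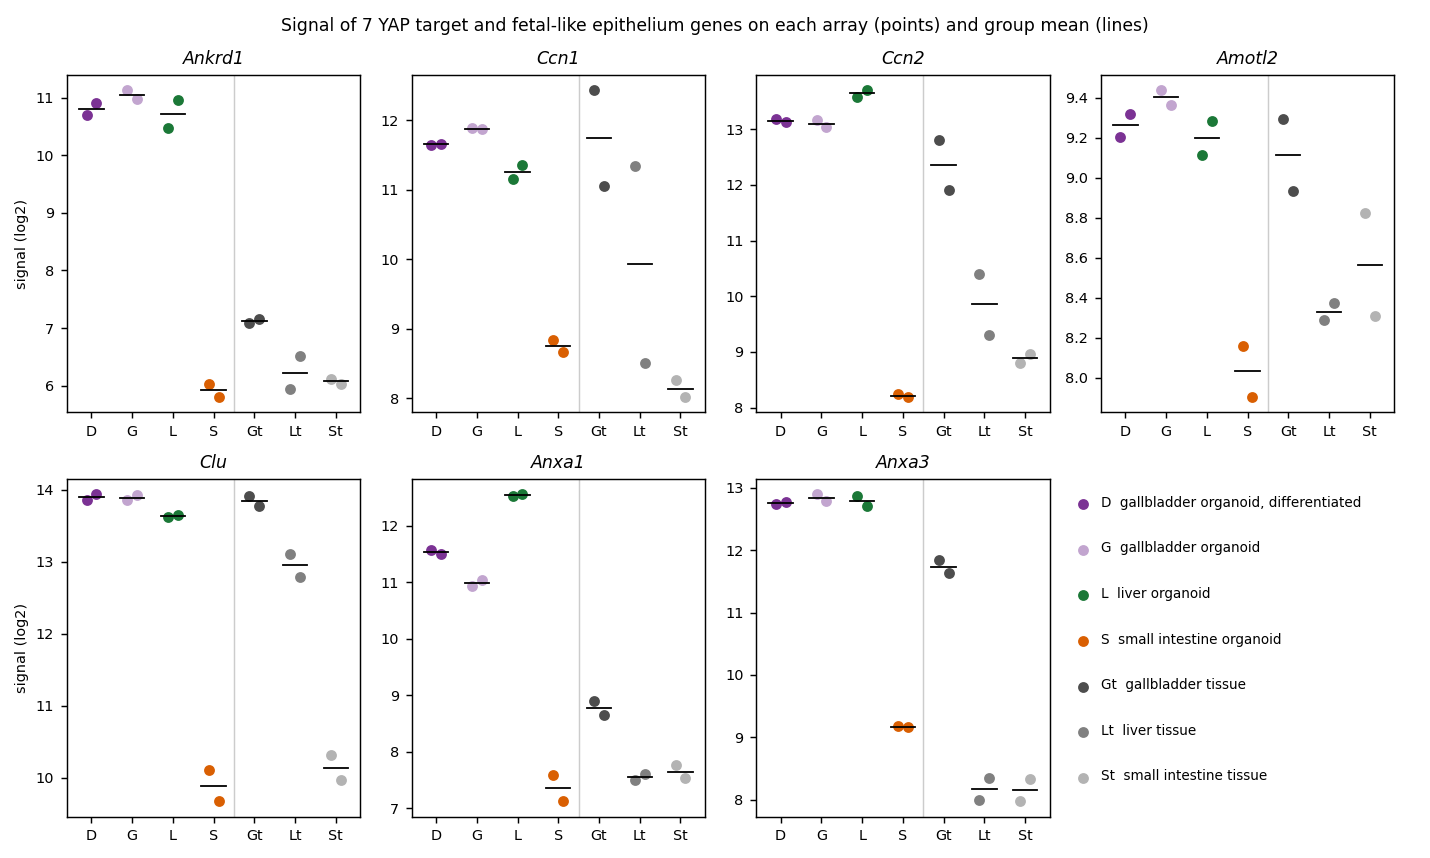
Log2 signal (vertical axis, 1 scale per gene) of the 7 measured genes on each array (points), with the mean of each group (line). Groups run along the horizontal axis, with organoids left of the grey line and tissues right of it. Differentiated gallbladder, gallbladder and liver organoids lie high for every gene. Small intestine organoids lie at or near the bottom except for Anxa3, where they lie above liver and small intestine tissue. Ccn1 spreads from 8.51 to 11.35 within liver tissue.

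Ankrd1, a nuclear ankyrin repeat protein and a standard readout of YAP, gave the sharpest division between groups. Its probe set, 10467191, reads a gene at chr19:36111965-36119844 (GRCm38.p6). Its signal was 10.71 and 10.90 in differentiated gallbladder organoids, 11.13 and 10.97 in gallbladder organoids, 10.47 and 10.96 in liver organoids, 6.04 and 5.80 in small intestine organoids, 7.08 and 7.16 in gallbladder tissue, 5.94 and 6.52 in liver tissue, and 6.11 and 6.04 in small intestine tissue. The arrays of the 3 biliary organoid groups (differentiated gallbladder, gallbladder and liver) lay above all others with no overlap, and those of small intestine organoids, liver tissue and small intestine tissue lay below every array's median. The signal was 35.0-fold higher in gallbladder organoids than in small intestine organoids (log2 difference 5.13, SE 0.21, adjusted p = 6.27e-08) and 27.8-fold higher in liver organoids (4.79, adjusted p = 9.84e-08). In the order of the group means, the step between liver organoids and gallbladder tissue was 3.59 (adjusted p = 8.39e-07), gallbladder tissue stood 0.90 above liver tissue (adjusted p = 0.00532), and no other pair of neighbours passed the test. The call between gallbladder and liver tissue was lost with array weights (adjusted p = 0.0769) and with the 4 arrays of these groups alone (adjusted p = 0.0642).

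Ccn2, formerly Ctgf, encodes a secreted matricellular protein that acts on adhesion and matrix deposition (probe set 10362201, chr10:24595442-24598683). It read 13.18 and 13.12 in differentiated gallbladder organoids, 13.17 and 13.04 in gallbladder organoids, 13.58 and 13.71 in liver organoids, 8.24 and 8.19 in small intestine organoids, 12.82 and 11.92 in gallbladder tissue, 10.40 and 9.31 in liver tissue, and 8.80 and 8.97 in small intestine tissue. The biliary organoids again stood above all tissue arrays, but gallbladder tissue followed closely, and the small intestine organoids were the lowest group. Liver organoids exceeded small intestine organoids 43.1-fold (log2 difference 5.43, SE 0.33, adjusted p = 1.09e-06), and gallbladder organoids did so 29.6-fold (4.89, adjusted p = 2.34e-06). Neighbours among the 3 highest groups differed by 0.49 or less and did not pass the test (adjusted p = 0.482 and 0.974), while each step from gallbladder tissue down to small intestine tissue did. The step from liver to small intestine tissue passed narrowly (0.97, adjusted p = 0.0428). It was lost with quantile normalisation (adjusted p = 0.0526), array weights (0.0522) and the arrays of these groups alone (0.179). Leaving out most arrays singly, including arrays of other groups, lost this call too.

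Ccn1, formerly Cyr61, encodes a related secreted protein and is an immediate early gene as well as a YAP target (probe set 10502655, chr3:145646971-145649985). Its signal was 11.64 and 11.67 in differentiated gallbladder organoids, 11.89 and 11.88 in gallbladder organoids, 11.15 and 11.36 in liver organoids, 8.84 and 8.66 in small intestine organoids, 12.44 and 11.05 in gallbladder tissue, 11.35 and 8.51 in liver tissue, and 8.25 and 8.01 in small intestine tissue. The organoid arrays of a group lay close together, whereas the arrays of gallbladder tissue and of liver tissue lay far apart and overlapped the biliary organoids. Gallbladder organoids were 8.76-fold above small intestine organoids (log2 difference 3.13, SE 0.72, adjusted p = 0.00703) and liver organoids 5.68-fold (2.51, adjusted p = 0.0262). The call for liver organoids was lost without either array of liver or small intestine organoids (adjusted p = 0.0934 to 0.123). No pair of neighbours in its order of groups passed the test.

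Amotl2 encodes an angiomotin family protein that binds YAP and holds it outside the nucleus, and is itself a YAP target (probe set 10588226, chr9:102717091-102733418). It read 9.21 and 9.32 in differentiated gallbladder organoids, 9.44 and 9.36 in gallbladder organoids, 9.11 and 9.29 in liver organoids, 8.16 and 7.90 in small intestine organoids, 9.29 and 8.94 in gallbladder tissue, 8.29 and 8.38 in liver tissue, and 8.82 and 8.31 in small intestine tissue. Its range was the narrowest of the 7 genes, and gallbladder tissue overlapped the liver organoids. It was 2.58-fold higher in gallbladder organoids than in small intestine organoids (log2 difference 1.37, SE 0.18, adjusted p = 0.000223) and 2.25-fold higher in liver organoids (1.17, adjusted p = 0.000733).

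Clu encodes clusterin, a secreted chaperone that marks the revival stem cells of the injured mouse intestine (probe set 10416057, chr14:65968483-65981548). The signal was 13.85 and 13.94 in differentiated gallbladder organoids, 13.85 and 13.92 in gallbladder organoids, 13.63 and 13.65 in liver organoids, 10.11 and 9.67 in small intestine organoids, 13.91 and 13.77 in gallbladder tissue, 13.11 and 12.79 in liver tissue, and 10.31 and 9.96 in small intestine tissue. Only the small intestine, as organoid or tissue, was far below the others, and gallbladder tissue overlapped the gallbladder organoids. Gallbladder organoids exceeded small intestine organoids 16.0-fold (log2 difference 3.998, SE 0.17, adjusted p = 9.05e-08) and liver organoids did so 13.4-fold (3.75, adjusted p = 1.42e-07). Its signals in the biliary organoids came close to the brightest of an array, and whether the scale compresses differences there was not tested.

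Anxa1 encodes annexin A1, a calcium-dependent phospholipid-binding protein known for its anti-inflammatory action (probe set 10466606, chr19:20373434-20390671). Its signal was 11.56 and 11.49 in differentiated gallbladder organoids, 10.93 and 11.03 in gallbladder organoids, 12.52 and 12.56 in liver organoids, 7.60 and 7.12 in small intestine organoids, 8.90 and 8.65 in gallbladder tissue, 7.51 and 7.61 in liver tissue, and 7.76 and 7.54 in small intestine tissue. The 3 biliary organoid groups did not overlap, with liver organoids on top; the arrays of Ccn1 did not overlap among these groups either, with liver organoids lowest. Liver organoids were 36.2-fold above small intestine organoids (log2 difference 5.18, SE 0.16, adjusted p = 1.06e-08) and gallbladder organoids 12.3-fold (3.62, adjusted p = 9.77e-08). Liver organoids also stood 1.01 above differentiated gallbladder organoids (adjusted p = 0.00429), while the step from these to undifferentiated gallbladder organoids did not pass the test (0.55, adjusted p = 0.087).

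Anxa3 encodes annexin A3, of the same family (probe set 10523451, chr5:96793385-96845968). It read 12.74 and 12.77 in differentiated gallbladder organoids, 12.90 and 12.79 in gallbladder organoids, 12.88 and 12.71 in liver organoids, 9.18 and 9.16 in small intestine organoids, 11.84 and 11.63 in gallbladder tissue, 7.999 and 8.35 in liver tissue, and 7.97 and 8.34 in small intestine tissue. The biliary organoids were level with each other, gallbladder tissue came next, and small intestine organoids lay above liver and small intestine tissue. Gallbladder organoids exceeded small intestine organoids 12.8-fold (log2 difference 3.68, SE 0.15, adjusted p = 7.64e-08) and liver organoids did so 12.3-fold (3.62, adjusted p = 8.82e-08). The steps between differentiated gallbladder organoids and gallbladder tissue (1.02), gallbladder tissue and small intestine organoids (2.57), and small intestine organoids and liver tissue (1.00) each passed the test (adjusted p = 0.000467, 5.25e-07 and 0.000385).

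The promoters of 4 of the 7 measured members were in the RefSeq promoter table (GRCm38.p6). They are shown because each of these genes was called higher in gallbladder and in liver organoids than in small intestine organoids. TEAD factors, the DNA-binding partners of YAP, recognise the letters GGAATG, which read as CATTCC on the other strand. The 250 bases before the listed start site are printed 5′ to 3′ on the gene's own strand, with each match in capitals: Ankrd1 at chr19:36119845-36120094 (minus strand), Ccn1 at chr3:145649986-145650235 (minus), Amotl2 at chr9:102717554-102717803 (plus) and Anxa1 at chr19:20390672-20390921 (minus). The Amotl2 window lies inside the gene span given above, so its listed start site is downstream of the gene's first base.
Ankrd1: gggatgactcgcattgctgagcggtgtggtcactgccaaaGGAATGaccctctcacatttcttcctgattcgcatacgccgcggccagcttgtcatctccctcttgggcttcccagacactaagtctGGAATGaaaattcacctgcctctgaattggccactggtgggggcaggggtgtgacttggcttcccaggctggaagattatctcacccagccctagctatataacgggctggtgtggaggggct
Ccn1: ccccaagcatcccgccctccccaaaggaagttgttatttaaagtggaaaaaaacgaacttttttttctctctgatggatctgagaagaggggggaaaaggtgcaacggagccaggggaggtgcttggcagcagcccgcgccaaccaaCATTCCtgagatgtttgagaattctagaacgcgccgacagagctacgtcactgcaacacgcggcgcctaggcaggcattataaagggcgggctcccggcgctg
Amotl2: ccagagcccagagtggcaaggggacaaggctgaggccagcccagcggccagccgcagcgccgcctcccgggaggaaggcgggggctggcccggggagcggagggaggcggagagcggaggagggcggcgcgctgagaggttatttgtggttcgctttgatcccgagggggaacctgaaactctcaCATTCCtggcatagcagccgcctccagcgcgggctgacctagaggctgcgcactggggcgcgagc
Anxa1: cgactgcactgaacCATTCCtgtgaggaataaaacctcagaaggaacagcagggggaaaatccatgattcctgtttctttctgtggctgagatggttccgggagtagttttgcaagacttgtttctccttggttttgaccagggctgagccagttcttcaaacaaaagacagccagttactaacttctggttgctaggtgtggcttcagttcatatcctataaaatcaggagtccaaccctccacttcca
Ankrd1 held 2 matches, which begin 210 and 123 bases before the start site. Ccn1, Amotl2 and Anxa1 held 1 match each, on the opposite strand, beginning 103, 65 and 236 bases before it. Over both strands, 14.7% of 32851 promoters of 300 bases (250 before and 50 after the start) held at least 1 match, and 1.36% held 2 or more. The letters TGANTCA, bound by AP-1, were in 0 of these 4 promoters and in 7.81% of all. A match of letters is a description of this window and not a measured binding site. Ccn2, Clu and Anxa3 had no entry.

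The other genes of the pathway showed which of its parts followed the members. Of 19 measured Hippo pathway genes and YAP/TAZ partners, 10 were higher and 2 lower in gallbladder organoids than in small intestine organoids (median difference 0.52, against 0.11 over all genes), and 7 were higher and 1 lower in liver organoids (0.37, against 0.05). The shares of all genes were 20.2% higher and 15.4% lower for gallbladder organoids, and 14.2% and 12.2% for liver organoids. Tead4, a DNA-binding partner, was 2.50 higher in gallbladder organoids (adjusted p = 2.36e-07) and 2.04 higher in liver organoids (adjusted p = 9.02e-07). Wwtr1, which encodes TAZ, was 1.10 and 1.53 higher (adjusted p = 5.04e-05 and 4.78e-06). The inhibitors Ptpn14 (1.88 and 1.94) and Amotl1 (1.36 and 2.01) were higher in both too. Yap1 itself did not follow: it averaged 9.76 in gallbladder organoids, 10.68 in liver organoids and 10.54 in small intestine organoids. It was 0.78 lower in gallbladder than in small intestine organoids (adjusted p = 0.00434; this value and that of Wwtr1 in gallbladder organoids were singled out after they were seen), and the difference of 0.14 for liver organoids did not pass the test (adjusted p = 0.641).

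Further YAP/TAZ target genes went the way of the members. Of 18 measured, 13 were higher and 1 lower in gallbladder organoids than in small intestine organoids (median 1.62), and 13 were higher and 0 lower in liver organoids (median 1.54; 13 higher and 0 lower at an unadjusted p below 0.05). The largest differences were those of Igfbp3, a binding protein of insulin-like growth factors (4.73 in gallbladder and 3.90 in liver organoids), and Myof, a membrane repair protein (3.94 and 4.79). Of 13 measured genes of fetal-like and regenerating epithelium, 11 were higher and 1 lower in gallbladder organoids (median 3.16), and 10 were higher in liver organoids (median 2.85). They were led by Anxa8 (5.31 and 4.04), the connexin gene Gja1 (5.06 and 3.74), Ecm1 (4.76 and 5.35) and Msln, which encodes mesothelin (3.80 and 4.57). Of all genes, 20.2% were called higher and 15.4% lower for gallbladder organoids, and 14.2% and 12.2% for liver organoids. The lists were chosen with earlier results of these data known. Their members overlap: Ptpn14 and Lats2 stand in both pathway lists, and Anxa2, Anxa5 and Anxa8 in the fetal-like and the annexin list.

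**Figure D2:**
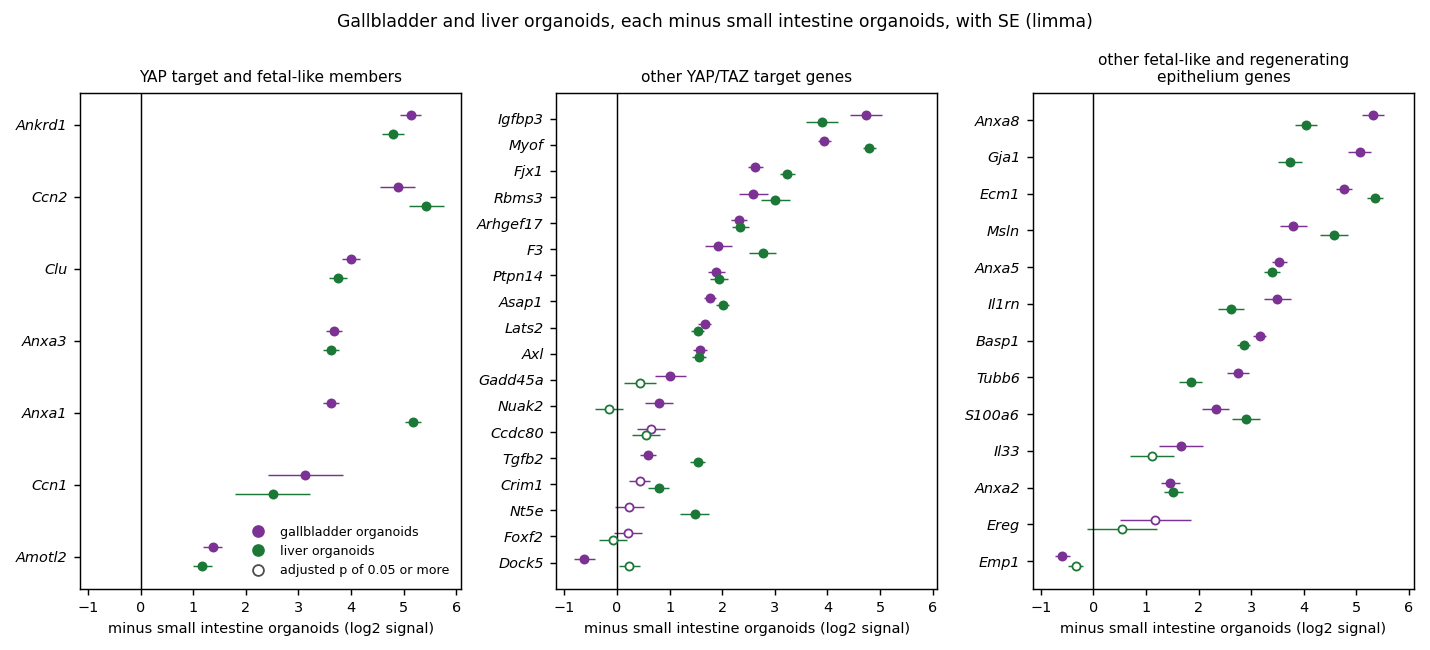
Log2 difference from small intestine organoids (horizontal axis; bars are limma's SE) of gallbladder organoids (purple) and liver organoids (green), with genes listed down the page; open circles did not pass the test. The 7 members lie between 1.17 and 5.43, 13 of 18 other targets were called higher in each, and the fetal-like genes reach 5.31 and 5.35 while Emp1 lies at or below 0.

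Within the annexin family, only some of the other genes followed Anxa1 and Anxa3. Of 10 other annexins measured, 5 were higher and 2 lower in gallbladder organoids than in small intestine organoids (median 0.34), and 5 were higher and 0 lower in liver organoids (median 0.56; 6 higher and 1 lower at an unadjusted p below 0.05). Anxa8, Anxa5 (3.53 and 3.39), Anxa6 (2.38 and 2.08) and Anxa2 (1.46 and 1.52) were higher in both. Of the 4 other CCN genes, 1 was higher in gallbladder organoids, Ccn4 (0.51, adjusted p = 0.0108), and 0 were called in liver organoids (0 at an unadjusted p below 0.05). With Ly6a not analysed here, 7 other Ly6 genes were measured, of which 6 were higher in gallbladder and 4 in liver organoids, led by Ly6d (6.26 and 6.28), Ly6m (3.36 and 2.65) and Ly6e (2.93 and 2.66). Beside these counts, 20.2% of all genes were called higher and 15.4% lower for gallbladder organoids, and 14.2% and 12.2% for liver organoids. The CCN count was near that share.

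**Figure D3:**
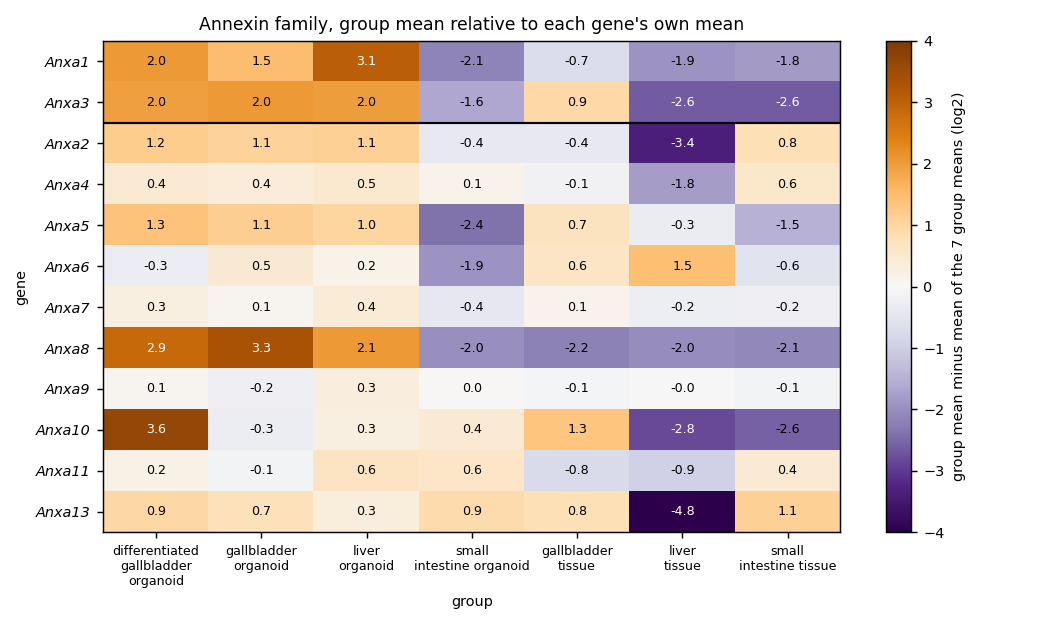
Group mean of each annexin gene minus the mean of its 7 group means (log2, colour and number), with genes in rows and groups in columns. Anxa1 and Anxa3, above the black line, are high in the biliary organoids; Anxa8 has a like pattern in organoids, and Anxa10 is highest in differentiated gallbladder organoids.

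Gallbladder organoids were set against liver organoids to ask how alike the members are in organoids of these origins. Of the 7 members, 0 were higher and 1 was lower in gallbladder organoids (limma; 1 at an unadjusted p below 0.05), against 6.17% higher and 6.52% lower of all genes. Anxa1 was 2.94-fold lower in gallbladder organoids (log2 difference -1.56, SE 0.16, adjusted p = 0.000219). The other 6 differences ran from -0.54 for Ccn2 to 0.62 for Ccn1 and did not pass the test with the spread shared by all 14 arrays. With the 4 arrays of these groups alone, Ccn2 was lower and Ccn1 and Clu were higher in gallbladder organoids (adjusted p = 0.00394, 0.00237 and 0.0481). That fit called 7092 of all 19938 genes, far more than the shares given above. Of the pathway genes, Yap1 was 0.92 lower (adjusted p = 0.0056), Wwtr1 and Amotl1 were 0.43 and 0.64 lower (adjusted p = 0.0373 and 0.0453), and Tead4 was 0.46 higher (adjusted p = 0.0348), which makes 1 higher and 3 lower of 19. Among the 18 other targets 1 was higher and 5 were lower, and among the 13 fetal-like genes 4 were higher and 1 was lower.

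The withdrawal of R-spondin 1, noggin and nicotinamide left the members at a high signal. Of the 7, 0 were called in differentiated against undifferentiated gallbladder organoids (limma; 1 at an unadjusted p below 0.05), where 2.8% of all genes were called higher and 1.93% lower. Anxa1 had 11.56 and 11.49 in differentiated organoids, against 10.93 and 11.03 in undifferentiated organoids, without overlap (log2 difference 0.55, SE 0.16, adjusted p = 0.087). It passed the test with array weights (adjusted p = 0.00277), with the 4 arrays of these groups alone (adjusted p = 0.00266), and without either small intestine organoid array (adjusted p = 0.0454). Ankrd1 (-0.25), Ccn1 (-0.23), Amotl2 (-0.14), Anxa3 (-0.09), Ccn2 (0.05) and Clu (0.01) all lay within 0.25 of 0, and with the 4 arrays alone Ccn1 was called lower (adjusted p = 0.0396). Of all 19938 genes, 5720 were called with array weights and 5353 with the 4 arrays alone. The calls of Anxa1 and Ccn1 in those settings thus stand beside a far larger share than the one above.

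Some genes of the wider lists did change with differentiation. Among the other targets 3 of 18 were higher and 0 lower: Nt5e, which encodes the ectonucleotidase CD73 (1.61, adjusted p = 0.00815), F3, which encodes tissue factor (1.11, adjusted p = 0.0388), and Fjx1 (0.76, adjusted p = 0.0136). Of the 13 fetal-like genes, Emp1 (1.18) and Ecm1 (0.85) were higher. Anxa10 was the outlying annexin, 3.89 higher, and Anxa6 was 0.72 lower. Ly6m was 0.93 lower, 0 of the 4 CCN genes were called (0 at an unadjusted p below 0.05), and of the 19 pathway genes 0 were called (1 higher and 1 lower at an unadjusted p below 0.05). Of all genes, 2.8% were called higher and 1.93% lower in this comparison.

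Organoids were next compared with the organ they came from. Such bulk samples hold other cells in the tissue, and a lower signal from fewer cells of a type and one from less RNA per cell cannot be told apart. In liver organoids against liver tissue, 6 of 7 members were higher and 0 lower, where 26.7% of all genes were called higher and 18.2% lower. The differences were 4.98 for Anxa1 (31.6-fold, adjusted p = 1.81e-08), 4.62 for Anxa3 (24.5-fold), 4.49 for Ankrd1 (22.5-fold), 3.79 for Ccn2 (13.8-fold), 0.87 for Amotl2 (adjusted p = 0.00253) and 0.69 for Clu (adjusted p = 0.00734). The call for Clu was lost without liver tissue replicate 2 (0.52, adjusted p = 0.0597). Epithelial markers moved with these genes: 7 of 7 were higher in liver organoids (median difference 4.79), and the 7 hepatocyte, 7 fibroblast and 7 endothelial markers were all lower (medians -8.05, -1.84 and -3.14), as were 6 of 7 immune, 5 of 7 smooth muscle and 4 of 5 mesothelial markers. Their part in the members' differences was not tested.

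In gallbladder organoids against gallbladder tissue, 3 of 7 members were higher and 0 lower, where 32.7% of all genes were called higher and 15.2% lower, so the members' share was near that of all genes. Ankrd1 was 3.93 higher (15.2-fold, SE 0.21, adjusted p = 4.83e-07), Anxa1 2.20 higher (4.61-fold, adjusted p = 3.37e-06) and Anxa3 1.11 higher (2.16-fold, adjusted p = 0.000254). Ccn2 (0.74, adjusted p = 0.0935), Amotl2 (0.29), Ccn1 (0.14) and Clu (0.05) did not pass the test. Ccn2 passed it without gallbladder tissue replicate 1 (1.19, adjusted p = 0.0178) and without either liver tissue array (0.74, adjusted p = 0.0282). The epithelial markers differed by a median of 0.39 here, with 2 of 7 called higher. The 7 smooth muscle, 7 fibroblast, 7 endothelial and 5 mesothelial markers and the 7 hepatocyte markers were all lower in the organoids (medians -5.95, -2.47, -2.34, -1.54 and -7.37), and 4 of 7 immune markers were lower. Whether those cells carry Ccn1, Ccn2 or Clu in the tissue was not tested.

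Small intestine organoids were set against small intestine tissue in the same way. Of 7 members, 1 was higher and 1 lower in the organoids, where 20.2% of all genes were called higher and 15.6% lower. Anxa3 was 1.01 higher (2.02-fold, adjusted p = 0.000511; 1.197 without small intestine tissue replicate 2). Amotl2 was 0.53 lower (adjusted p = 0.0409; 0.79 lower without replicate 2, and not called without replicate 1, at 0.28 lower with adjusted p = 0.277), a call also lost without most other arrays taken singly. Ankrd1 (-0.15), Ccn1 (0.62), Ccn2 (-0.67), Clu (-0.25) and Anxa1 (-0.29) did not pass the test. With the 4 arrays of these groups alone, Ccn2 was called lower (adjusted p = 0.0188) and Ccn1 higher (adjusted p = 0.0391) in the organoids. The 7 smooth muscle, 7 fibroblast and 7 immune markers were all lower in these organoids, as were 6 of 7 endothelial and 4 of 5 mesothelial markers. The enterocyte markers were lower for 3 of 7, and 0 of 5 acinar markers were called (4 lower at an unadjusted p below 0.05).

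**Figure D4:**
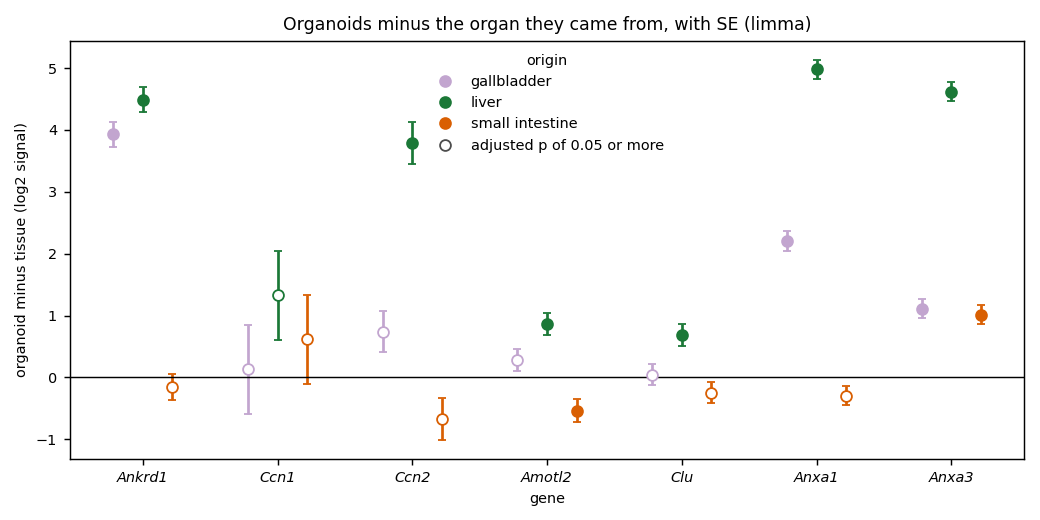
Log2 difference of organoids minus the tissue of the same origin (vertical axis; bars are limma's SE) for each member and origin; open circles did not pass the test. Ankrd1, Anxa1 and Anxa3 lie high for liver (4.49 to 4.98) and lower for gallbladder, Ccn2 is high for liver alone (3.79), and small intestine values lie between -0.67 and 1.01.

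The wider lists were compared with tissue as well. In liver organoids against liver tissue, 15 of 19 pathway genes were higher and 0 lower (median 0.93, against 0.00 over all genes), led by Ptpn14 (2.17), Tead4 (2.08) and Tead1 (1.87). Of the other lists, 11 of 18 targets were higher and 3 lower (median 1.01), 10 of 13 fetal-like genes were higher and 0 lower (median 2.74), and 8 of 10 annexins were higher and 1 lower (median 1.93). Over all genes, 26.7% were called higher and 18.2% lower there. In gallbladder organoids, 9 of 19 pathway genes were higher and 1 lower, the targets split into 8 higher and 8 lower of 18, and 10 of 13 fetal-like genes were higher and 1 lower. The shares of all genes in that comparison were 32.7% higher and 15.2% lower. The lowest target was Ccdc80 (-4.05), a secreted matrix protein, and the highest was Igfbp3 (2.36). In small intestine organoids, 13 of 18 targets were lower and 0 higher (median -1.15), and 8 of 13 fetal-like genes were lower and 1 higher (median -0.997). Here 20.2% of all genes were called higher and 15.6% lower. Il33, an alarmin cytokine, was 4.32 lower, and Ly6m was 5.41 lower.

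The difference between these organoid-tissue differences was tested as an interaction. The liver difference minus the small intestine difference was called for 6 of 7 members, all higher, where 19% of all genes were called higher and 16.2% lower. It was 5.27 for Anxa1, 4.64 for Ankrd1, 4.46 for Ccn2, 3.602 for Anxa3, 1.40 for Amotl2 and 0.93 for Clu (adjusted p = 3.09e-07 to 0.0122), and 0.71 for Ccn1 (adjusted p = 0.659). The call for Clu reached only an adjusted p of 0.05 without small intestine organoid replicate 2. The gallbladder difference minus the small intestine difference was called for 4 of 7, all higher, where 22.3% were called higher and 14.3% lower. It was 4.08 for Ankrd1, 2.50 for Anxa1, 1.41 for Ccn2 and 0.82 for Amotl2, and the last 2 calls were lost without any 1 of several arrays (without small intestine tissue replicate 2, 1.32 for Ccn2 with adjusted p = 0.0867). The gallbladder difference minus the liver difference was lower for 3 of 7, where 17.1% were called lower and 22.7% higher: Anxa3 (-3.51), Ccn2 (-3.05) and Anxa1 (-2.77). That of Ankrd1 was -0.56 (adjusted p = 0.152). Each origin enters 2 of these 3 tests, so they share arrays.

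Averaged over the 3 origins, 4 of 7 members were higher in organoids than in tissues and 0 lower, where 33.7% of all genes were called higher and 19.9% lower. Ankrd1 (2.75), Anxa1 (2.30), Anxa3 (2.25) and Ccn2 (1.29) passed the test, and Ccn1 (0.69), Amotl2 (0.21) and Clu (0.16) did not. The average does not hold for each origin. In small intestine organoids against their tissue, Ankrd1 (-0.15), Anxa1 (-0.29) and Ccn2 (-0.67) were not called, while Anxa3 was higher (1.01).

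The tissues differed among themselves as well. All 7 members were higher in gallbladder than in small intestine tissue, where 20.7% of all genes were called higher and 24.3% lower. Clu was 3.70 higher (13.03-fold), Ccn1 3.61 (12.2-fold), Anxa3 3.58 (11.96-fold) and Ccn2 3.48 (11.2-fold), and Anxa1, Ankrd1 and Amotl2 were 1.12, 1.05 and 0.55 higher. Without small intestine tissue replicate 2, Amotl2 was no longer called (0.29, adjusted p = 0.209), and the other 6 were. With array weights, Amotl2 (adjusted p = 0.165) and Ankrd1 (adjusted p = 0.0559) were not called. Amotl2 was also lost with quantile normalisation (adjusted p = 0.0539), median centring (0.0727) and the arrays of these groups alone (0.215). Against liver tissue, 6 of 7 members were higher in gallbladder tissue and 0 lower, where 20.7% of all genes were called higher and 27.4% lower. Anxa3 (3.56, 11.8-fold) and Ccn2 (2.51, 5.69-fold) led, and Ccn1 did not pass the test (1.82, adjusted p = 0.0602). With the 4 arrays of these groups alone, Amotl2 (0.78, adjusted p = 0.0514) and Ankrd1 (0.90, adjusted p = 0.0642) were not called. Ankrd1 was also not called against liver tissue with array weights (adjusted p = 0.0769). In liver against small intestine tissue, 2 of 7 were higher, where 18.7% of all genes were called higher and 18.8% lower: Clu (2.81, 7.03-fold, adjusted p = 7.16e-07) and Ccn2 (0.97, adjusted p = 0.0428, but 1.06 with adjusted p = 0.0835 without small intestine tissue replicate 2, and 0.42 with adjusted p = 0.316 without liver tissue replicate 1). Smooth muscle markers averaged 13.06 in gallbladder tissue, 7.95 in liver tissue and 11.46 in small intestine tissue, and fibroblast markers 10.41, 9.05 and 9.07. In the same order, epithelium markers averaged 12.30, 9.16 and 12.54, gallbladder and bile duct markers 9.94, 7.80 and 8.02, and hepatocyte markers 13.50, 14.17 and 8.80. Their part in the differences between tissues was not tested.

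Several tissue values depended on single arrays, as given above for Ccn2, Amotl2 and Clu, and those of Ccn1 spread widest in liver tissue. There, replicate 1 exceeded replicate 2 by 2.84, a difference at rank 29 among all genes. Ccn2 was 1.10 higher on replicate 1, and Ankrd1 went the other way, 0.58 lower on replicate 1. Immediate early genes, which are switched on within minutes of a stimulus and were listed after the data were seen, moved with Ccn1: 13 of 14 were higher on replicate 1 of liver tissue (median 2.44), among them Atf3 (3.91), Egr1 (2.99) and Fos (2.69). In gallbladder tissue, replicate 1 exceeded replicate 2 by 1.39 for Ccn1 and 0.90 for Ccn2. There, 12 of 14 immediate early genes were higher on replicate 1 (median 0.49), and the lowest was Myc (-1.40). In small intestine tissue 8 of 14 were higher (median 0.05). The gallbladder tissue arrays differed in cell type markers too. On replicates 1 and 2, hepatocyte markers averaged 13.02 and 13.99, and epithelium markers 12.50 and 12.10. The part of the immediate early response or of cell content in the Ccn1 values was not tested.

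Leaving out those arrays changed the calls of Ccn1. Without liver tissue replicate 1, it was 2.75 higher in liver organoids than in liver tissue (adjusted p = 0.000858), 1.17 higher in organoids than in tissues over the 3 origins (adjusted p = 0.00165) and 3.24 higher in gallbladder than in liver tissue (adjusted p = 0.000562). Without liver tissue replicate 2, the liver organoid difference was -0.09 (adjusted p = 0.9), and liver tissue was 3.21 above small intestine tissue (adjusted p = 0.000427). Because all arrays share one estimate of the spread per gene, the wide liver tissue pair also enters the SE of Ccn1 between organoids: with the arrays of the groups compared alone, the adjusted p for gallbladder against small intestine organoids was 9.6e-07.

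**Figure D5:**
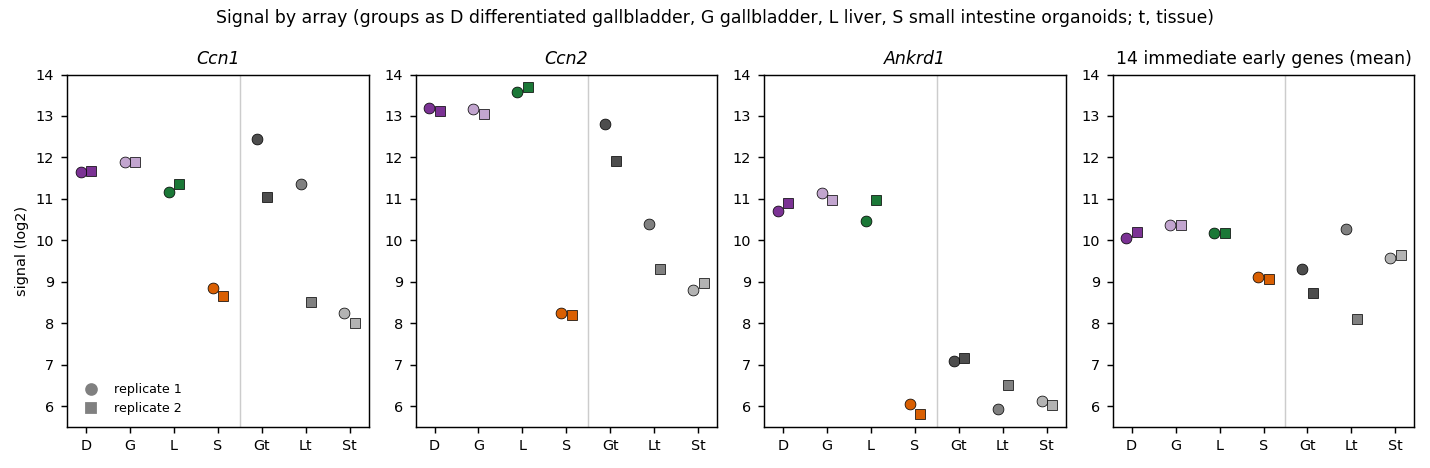
Log2 signal on each array (vertical axis, 1 scale for all panels) of Ccn1, Ccn2, Ankrd1 and the mean of 14 immediate early genes; circles are replicate 1 and squares replicate 2, with groups along the horizontal axis. Liver tissue replicate 1 lies above replicate 2 for Ccn1 (11.35 and 8.51) and the immediate early mean (10.28 and 8.11), and below it for Ankrd1 (5.94 and 6.52).

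The members were also compared by pattern over the 14 arrays. Pearson correlations of the 21 pairs ran between 0.69 (Ccn1 with Anxa1) and 0.96 (Ankrd1 with Anxa1), with a median of 0.86. These points fall into groups of 2 arrays each, so the correlations describe group patterns. Among 9810 genes whose group means spanned at least 1 log2 unit, those most like Ankrd1 were Fbln2 (r = 0.996), Cdh13 (0.993) and Basp1 (0.990), and Basp1 is on the fetal-like list. Fbln2, a matrix glycoprotein, averaged 10.36, 10.45 and 10.33 in differentiated gallbladder, gallbladder and liver organoids and 7.92 to 8.57 in the other groups. The genes most like Ccn2 were Wfdc2 (0.985), Sema3f (0.982) and Bicc1 (0.981), and those most like Anxa3 were Bcam (0.991), Zc2hc1a (0.989) and Hdac7 (0.989). Wfdc2, a secreted protein with whey acidic protein domains, averaged 12.45, 12.69 and 12.27 in the biliary organoids, 7.16 in small intestine organoids, and 11.19, 8.21 and 7.21 in gallbladder, liver and small intestine tissue. Anxa1 was closest to Slc44a2 (0.987), Prss35 (0.985) and Rassf9 (0.984), Clu to Camsap2 (0.983), Dock4 (0.979) and Pik3ap1 (0.979), and Amotl2 to Col4a2 (0.975), Adgrg6 (0.966) and Syde1 (0.960). Ccn1 had the loosest likeness, with Fndc3b (0.952), Tspyl2 (0.947) and Kcnt2 (0.938).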

How the data were processed

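RNA of 14 samples was hybridised to 1 Affymetrix gene array each, after column extraction and whole-transcript biotin labelling per the labels' protocols. The authors deposited log2 signals per probe set, computed by RMA per the submitters' processing notes. They hold no detection calls, so the noise floor is unknown, and 2 arrays a group limit the precision. Of 35556 probe sets, 21789 had 1 symbol, 1621 several and 12146 were unlisted in the array annotation. For 999 genes with several probe sets the one with the highest mean was kept, which left 19938 genes. Gene positions come from a RefSeq table of GRCm38.p6, in which 21698 probe sets matched by gene number; the build of the array design is not given in the sources used here.

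Sample titles gave the groups. limma 3.58.1 (R 4.3.3) estimated a mean for each group from all 14 arrays together, with 7 degrees of freedom left for the spread (9.91 with the prior); tests were 2-sided, with Benjamini-Hochberg adjustment over all genes, in 14 comparisons including 3 interactions. The fit was also run on simulated data in which a gene had the same spread in every group. The measured groups differed in spread, so that run does not test the effect of unequal spread. An exact permutation test of 2 against 2 arrays cannot go below 0.333 and was not used. The same replicate numbers occur in all groups, but the labels tie them to nothing: deviations of same-numbered arrays correlated between -0.10 and 0.14 over 21 pairs of groups. The members and the gene lists (Hippo pathway, other targets, fetal-like genes, annexins, CCN and Ly6 genes, cell type markers) were chosen with earlier results of these data known. Named are all members, up to 4 called genes of a list with the largest differences per comparison, and for each member the 3 most correlated genes. Settings varied were quantile normalisation, median centring, the dimmest 40% of genes left out, the mean of a gene's probe sets, an intensity trend with robust fitting, array weights, a replicate block, the compared arrays alone, and each array left out.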

Additional observations from a re-analysis of the deposited data

Results flagged for a closer look

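The change between organoid and tissue differed between origins for 13 of the 21 values tested in the same model. In the liver minus the small intestine, 6 of 7 members were called higher, where 19% of all genes were, and the difference was 5.27 for Anxa1, 4.64 for Ankrd1, 4.46 for Ccn2, 3.602 for Anxa3, 1.40 for Amotl2 and 0.93 for Clu (limma, adjusted p = 3.09e-07 to 0.0122). In the gallbladder minus the small intestine, 4 of 7 were called higher, where 22.3% of all genes were, and it was 4.08 for Ankrd1, 2.50 for Anxa1, 1.41 for Ccn2 and 0.82 for Amotl2. In the gallbladder minus the liver, 3 of 7 were called lower, where 17.1% of all genes were, and it was -3.51 for Anxa3, -3.05 for Ccn2 and -2.77 for Anxa1. For Anxa3, the organoids of gallbladder and liver averaged 12.85 and 12.79, while the tissues averaged 11.74 and 8.17. For Ccn2 the organoids averaged 13.10 and 13.64 and the tissues 12.37 and 9.86, so that the organoid means lay closer together than the tissue means. With 2 arrays in each group, no single group could be searched for an outlying array.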

How the results depend on the processing

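The counts of members called stayed within 1.5 times in 103 recounts that kept all arrays and moved further in 9. Liver against small intestine tissue had 1 member called, in place of 2, with quantile normalisation, with array weights and with the compared arrays alone, as Ccn2 was lost. Small intestine organoids against tissue had 1 in place of 2 with median centring and with array weights, as Amotl2 was lost. Differentiated against undifferentiated gallbladder organoids had 1 with array weights and 2 with the compared arrays alone, and gallbladder against liver organoids had 2 and 4 in place of 1. With each array left out in turn, the count ran between 0 and 1 for differentiation, 1 and 2 for small intestine organoids against tissue, 1 and 3 for liver against small intestine tissue, 3 and 5 for the gallbladder minus liver interaction, and 2 and 4 for the gallbladder minus small intestine interaction. It stayed at 7 for gallbladder against small intestine organoids and was 6 or 7 for liver against small intestine organoids. The replicate block left every count within 1.5 times: gallbladder against liver tissue had 7 in place of 6, with Ccn1 added (adjusted p = 0.0442), and the gallbladder minus liver interaction had 4 in place of 3, with Clu added (adjusted p = 0.041).

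Values that turned sign were all uncalled with every array, and their ranges with each array left out are as follows. Between differentiated and undifferentiated gallbladder organoids, Clu ran from -0.035 to 0.050 (and was -0.012 with median centring) and Ccn2 from -0.016 to 0.11. Anxa3 ran from -0.030 to 0.14 between gallbladder and liver organoids. Between gallbladder organoids and tissue, Ccn1 ran from -0.56 to 0.83 and Clu from -0.019 to 0.11. Ccn1 ran from -0.09 to 2.75 between liver organoids and tissue. Between liver and small intestine tissue, Ankrd1 ran from -0.14 to 0.44, Amotl2 from -0.49 to 0.023, Anxa1 from -0.20 to 0.018 and Anxa3 from -0.16 to 0.20. In the interactions, Ccn1 ran from -2.61 to 0.23 (gallbladder minus liver), from -1.18 to 0.22 (gallbladder minus small intestine) and from -0.71 to 2.13 (liver minus small intestine), and Anxa3 from -0.087 to 0.28 (gallbladder minus small intestine). Ccn1 was called at its far end from 0 in the gallbladder minus liver and liver minus small intestine interactions and for liver organoids, each without liver tissue replicate 1. The cause was not tested.

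Over all genes, the number called in differentiated against undifferentiated gallbladder organoids was 943, but 5720 with array weights and 5353 with the compared arrays alone. It was 2530, 7399 and 7092 for gallbladder against liver organoids, and 7100, 12112 and 11709 for gallbladder against small intestine organoids. It was 9597, 5910 and 3824 for gallbladder against liver tissue, and 8973, 5154 and 3224 for gallbladder against small intestine tissue. Liver against small intestine organoids had 5275 and, with weights, 8191, and liver against small intestine tissue had 7485 and, with the compared arrays alone, 3962. Median centring moved the median of all genes between gallbladder and liver tissue to -0.21, against -0.09 as deposited, and the share of higher calls there to 32.0%, against 43.0%.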

Other observations

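Gene lists around the members also differed between the tissues. In gallbladder against liver tissue, 12 of 19 Hippo pathway genes and partners were higher and 0 lower (median 0.52, against -0.09 over all genes, of which 20.7% were called higher and 27.4% lower), led by Tead1 (2.44) and Ptpn14 (1.90), and 13 of 18 other YAP/TAZ targets were higher and 2 lower (median 1.02), led by F3 (2.65) and Crim1 (2.29). Of the 10 other annexins, 6 were higher and 1 lower, led by Anxa13 (5.57) and Anxa10 (4.15). Cell type markers moved with these lists: 7 of 7 smooth muscle (median 5.02), 6 of 7 fibroblast (1.57), 6 of 7 epithelial (3.39) and 4 of 5 gallbladder and bile duct markers (1.73) were higher in gallbladder tissue, and 5 of 7 immune markers were lower (-1.06). Their part in the lists' differences was not tested. In liver against small intestine tissue, 2 of 19 pathway genes were higher and 6 lower (median -0.21), and 2 of 18 targets were higher and 7 lower (median -0.26), where 18.7% of all genes were called higher and 18.8% lower (median 0.04). The share called higher was below that of all genes in both lists. There, 6 of 7 hepatocyte markers were higher in liver tissue, and 7 of 7 smooth muscle, 6 of 7 epithelial and 6 of 7 enterocyte markers were lower, and their part was not tested either. Emp1, a membrane protein of epithelia, was 4.96 lower in liver tissue in this comparison.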
